A study of Mus musculus with 6 samples.

Results

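The nuclear-encoded subunits of the mitochondrial respiratory chain and ATP synthase were followed in the livers of wild-type C57BL/6 mice with a diet-induced bile duct injury. The members were all genes of the deposited gene table whose symbol belongs to the Ndufa, Ndufb, Ndufc, Ndufs or Ndufv series, to Sdha to Sdhd, or to the Uqcr, Cox4 to Cox8 or Atp5 series, leaving out any described as a pseudogene or an assembly factor. This gave 84 of 24532 genes: 37 for complex I, 4 for complex II, 8 for complex III, 18 for complex IV and 17 for complex V. All mice, the controls included, ate a diet holding DDC (3,5-diethoxycarbonyl-1,4-dihydrocollidine) at 0.1% for 4 weeks. Over the final 2 weeks 3 mice received rhCYGB (recombinant human cytoglobin, an oxygen-binding heme protein) at 2 mg/kg 2 times a week. The other 3 received its normal saline vehicle on that schedule, and the end point was 2 days past the final dose. Each library is the liver mRNA of 1 mouse, and neither a liver without DDC nor a batch is named in the labels, so the comparison speaks only of rhCYGB against saline on top of DDC. Neither age nor sex is stated in the labels.

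Complexes I and II pass electrons from NADH and from succinate to coenzyme Q, complex III passes them on to cytochrome c, and complex IV reduces oxygen. Complexes I, III and IV pump protons across the inner mitochondrial membrane, and complex V, the ATP synthase, uses that gradient to make ATP. Complex II is built from nuclear genes alone, whereas the other complexes also hold subunits of the mitochondrial genome, which were not analysed here. Hepatocytes are rich in mitochondria. DDC disturbs hepatic heme synthesis, and complexes II, III and IV carry heme.

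The 6 libraries held between 58422095 and 72431373 estimated counts. Their scaling factors by the trimmed mean of M-values (TMM), which correct for libraries dominated by a few abundant RNAs, were 1.45, 1.07 and 1.18 in the vehicle group, against 1.18, 0.744 and 0.630 in the rhCYGB group. The first rhCYGB library therefore lay among the vehicle libraries by this measure, apart from the other 2 of its group. Expression also followed transcript length differently from library to library. Per doubling of length, log2 expression relative to the 6-library mean changed in genes outside the module by 0.40, -0.02 and 0.05 in the vehicle libraries and by 0.24, -0.35 and -0.32 with rhCYGB. Libraries rhCYGB 2 and rhCYGB 3 thus held relatively more of short mRNAs, and vehicle 1 and rhCYGB 1 more of long ones. Both features touch the results that follow, and their part in them was not tested. Levels are given as TPM, a unit divided by transcript length with the same total in every library. They are also given as CPM, counts scaled to library size and TMM factor, on which the count test works. Division by length does not remove a library's own trend on length, and TPM fold changes followed length too, as given further on.

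The module was one of the abundant gene groups of these livers. Its summed share of each library's TPM was 2.36%, 2.72% and 2.82% in the vehicle libraries and 2.76%, 3.82% and 3.79% with rhCYGB. Libraries rhCYGB 2 and rhCYGB 3 were the highest, while rhCYGB 1 lay between vehicle 2 and vehicle 3, so the groups overlapped. Complex V took 0.761%, 0.828% and 0.867% in the vehicle libraries and 0.879%, 1.12% and 1.14% with rhCYGB. Complex I took 0.684%, 0.829% and 0.854% in the vehicle libraries and 0.806%, 1.20% and 1.17% with rhCYGB, with Ndufa4 counted there by its symbol. Complex IV took 0.513%, 0.642% and 0.653% in the vehicle libraries and 0.610%, 0.905% and 0.880% with rhCYGB. For complex III the shares were 0.288%, 0.323% and 0.337% in the vehicle libraries and 0.339%, 0.499% and 0.494% with rhCYGB. Those 4 complexes shared the pattern of the whole module, with rhCYGB 2 and rhCYGB 3 above the other 4 libraries, and rhCYGB 1 exceeded the highest vehicle library by a small margin for complexes III and V and lay within the vehicle range for I and IV. Complex II, the smallest, took 0.113%, 0.0970% and 0.107% in the vehicle libraries and 0.131%, 0.0957% and 0.0918% with rhCYGB. It went the other way, with its highest share in rhCYGB 1 and its lowest in rhCYGB 3. These are bulk livers, in which fewer cells of a type and less RNA per cell cannot be told apart.

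**Figure D1:**
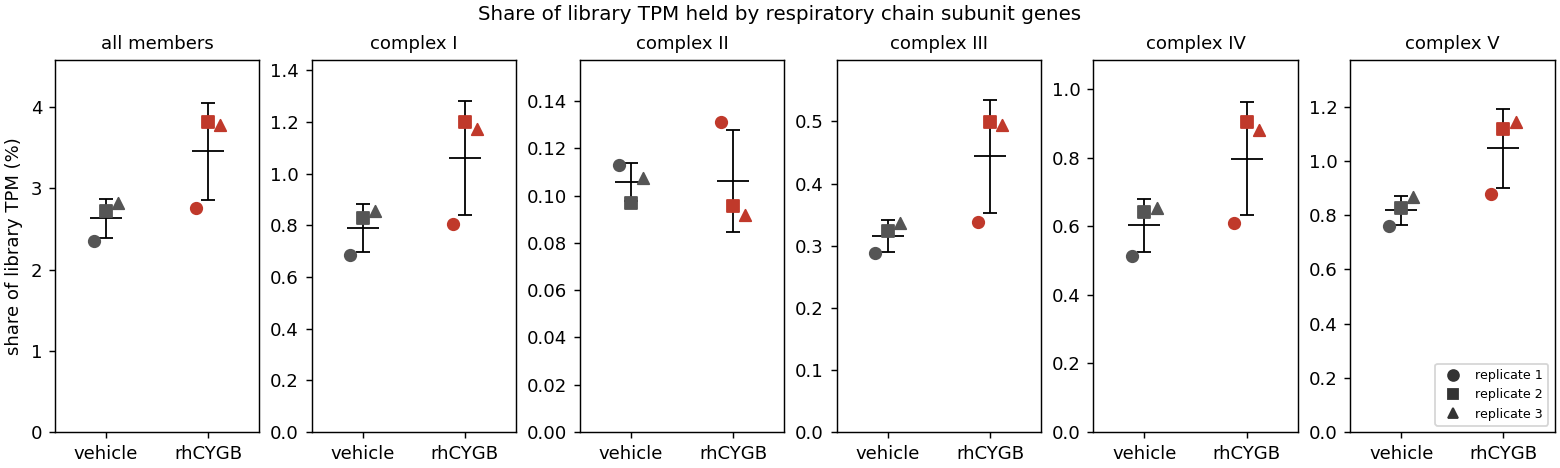
Summed TPM of the members as a percentage of each library, by complex and for all members; each point is 1 library (3 vehicle, 3 rhCYGB), and lines with bars are the mean and SD. In complexes I, III, IV and V rhCYGB 2 and rhCYGB 3 lie above the other 4 libraries and rhCYGB 1 lies within or just above the vehicle range, whereas complex II has its highest share in rhCYGB 1 (0.131%) and its lowest in rhCYGB 3 (0.0918%).

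Genes of this kind are textbook targets of nuclear respiratory factors. RefSeq's GRCm38.p6 promoter windows, running from 250 bases before to 50 bases after a gene's start, were found for 69 of the 84 members. They were searched on both strands for the NRF1 palindrome and a looser NRF1 form that allows any base at 1 central position (and so includes every palindrome), the ERR-alpha element TCAAGGTCA, the YY1 element AAGATGGC and the GABPA (ETS) element CCGGAAG. At least 1 of these was present in 38 of 69 member promoters (55.1%), against 15.1% of all 32851 promoter windows of that length. The first share counts genes, 6 of which have 2 windows, and the second counts windows, those of genes not tested here included. For the tested genes shares were computed only motif by motif, and are given below. One promoter per factor is shown, taken from members whose values are described further on, so that the shared elements can be seen in place: Cox6a1 at chr5:115348909-115349208 (minus strand) for NRF1, Atp5g3 at chr2:73911277-73911576 (minus strand) for ERR-alpha, Atp5j2 at chr5:145191492-145191791 (minus strand) for YY1 and Cox6b1 at chr7:30626065-30626364 (minus strand) for GABPA. Sequences are RefSeq's, read 5′ to 3′ on the gene's strand, and capitals mark every match of a searched motif on either strand.
Cox6a1: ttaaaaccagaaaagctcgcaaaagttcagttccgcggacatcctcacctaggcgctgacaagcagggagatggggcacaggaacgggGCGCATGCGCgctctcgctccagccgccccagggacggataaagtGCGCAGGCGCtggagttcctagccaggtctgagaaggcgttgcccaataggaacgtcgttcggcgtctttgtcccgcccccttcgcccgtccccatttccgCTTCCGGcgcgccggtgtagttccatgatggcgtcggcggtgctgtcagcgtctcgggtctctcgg
Atp5g3: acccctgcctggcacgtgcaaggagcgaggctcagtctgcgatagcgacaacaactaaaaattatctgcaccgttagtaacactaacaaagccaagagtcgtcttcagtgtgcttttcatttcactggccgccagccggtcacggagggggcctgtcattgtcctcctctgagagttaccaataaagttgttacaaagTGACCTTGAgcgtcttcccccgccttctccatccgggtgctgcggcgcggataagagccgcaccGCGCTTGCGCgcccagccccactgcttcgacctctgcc
Atp5j2: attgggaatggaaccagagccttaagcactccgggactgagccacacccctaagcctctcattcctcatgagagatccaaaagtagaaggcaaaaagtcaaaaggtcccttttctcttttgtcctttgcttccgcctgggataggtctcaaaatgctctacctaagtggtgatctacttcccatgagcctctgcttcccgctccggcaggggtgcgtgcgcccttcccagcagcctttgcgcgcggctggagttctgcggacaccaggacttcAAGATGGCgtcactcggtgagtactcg
Cox6b1: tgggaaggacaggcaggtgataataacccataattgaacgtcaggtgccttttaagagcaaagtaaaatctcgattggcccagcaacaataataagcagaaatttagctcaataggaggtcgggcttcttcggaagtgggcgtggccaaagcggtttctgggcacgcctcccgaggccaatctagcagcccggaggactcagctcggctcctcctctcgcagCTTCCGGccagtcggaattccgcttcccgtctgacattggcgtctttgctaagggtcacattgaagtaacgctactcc

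By motif, the NRF1 palindrome was in 5 of 69 member promoters (7.25%, against 0.971% of all promoters), the looser NRF1 form in 17 (24.6%, against 4.60%) and TCAAGGTCA in 2 (2.90%, against 0.423%). AAGATGGC was in 11 (15.9%, against 2.75%) and CCGGAAG in 16 (23.2%, against 8.86%). Among the 11415 genes tested here that have a promoter window, a set nearer to the members in expression, the shares were 2.14%, 10.6%, 0.324%, 4.88% and 18.6% in the same order. Median fold changes were close between members with and without the commoner motifs. The median log2 fold change was 1.21 for the 17 tested members with the looser NRF1 form and 1.22 for the 50 without. It was 1.23 with AAGATGGC (11 members) and 1.21 without, and 1.26 with CCGGAAG (16 members) and 1.21 without. For the rarer motifs it was 1.33 with the NRF1 palindrome (5 members) and 1.21 without, and 0.55 with TCAAGGTCA (2 members) and 1.23 without. Such a match describes the letters of the window and is not evidence of binding.

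Of the 84 members, 80 were expressed enough to be tested, in a fit over 14415 genes. All 80 had a fitted log2 fold change (rhCYGB over vehicle) above 0, from 0.09 for Ndufs1 to 1.79 for Atp5e, against 46.8% of all genes tested; on the log2(TPM + 1) scale 64 were above 0 and 16 below (12.8% of all genes were above 0), and with rhCYGB 2 and rhCYGB 3 both left out 39 of 80 were above 0. None passed an adjusted p of 0.05 in the edgeR quasi-likelihood test with Benjamini-Hochberg adjustment, in which 0% of all genes passed and the smallest adjusted p of any gene was 0.523. At an unadjusted p under 0.05, 48 members were higher and 0 lower, where the background over all genes was 6.06% higher and 2.06% lower. DESeq2 also called 0 members (64 at an unadjusted p under 0.05, all higher, as were 1444 of all 14415 genes), and limma on log2(TPM + 1) called 0 (1 at an unadjusted p under 0.05, Uqcr10, where 0.604% of all genes were higher). The limma-voom fit with sample quality weights called 65 of 80, all higher, in a fit that called 4323 genes in all. The fit without rhCYGB 1 called 63 of the 80 among 3391 genes, and 67 members were higher at an unadjusted p under 0.05 there, where 20.8% of all genes were. That number was 0, 17 and 2 without vehicle 1, 2 and 3 (1.16%, 2.42% and 1.84% of all genes), and 0 and 1 without rhCYGB 2 and rhCYGB 3 (2.00% and 1.24%).

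The median log2 fold change of the 80 members was 1.21, beside -0.06 for all genes tested. By complex it was 1.24 for complex I, 0.61 for complex II (-0.13 on the log2(TPM + 1) scale), 1.22 for complex III, 1.19 for complex IV and 1.15 for complex V, all on the TMM-scaled count scale. On the log2(TPM + 1) scale, where the median of all genes was -0.51, the medians were 0.39, -0.13, 0.37, 0.34 and 0.27 in the same order. With rhCYGB 2 and rhCYGB 3 both left out, which leaves rhCYGB 1 against the 3 vehicle libraries, the median of all members was -0.03. Read by library, the members' median log2 CPM relative to the 6-library mean was -1.13, -0.18 and -0.31 in the vehicle libraries and -0.47, 0.98 and 1.15 with rhCYGB. Vehicle 1 was the lowest library and rhCYGB 1 lay below both other vehicle libraries. The members' positive median in the group comparison therefore rests on rhCYGB 2 and rhCYGB 3, but not the sign of every member. Without rhCYGB 2 and rhCYGB 3 the log2 fold change was 0.61 for Ndufs1, 0.45 for Sdha and 0.47 for Uqcrc2, and without rhCYGB 1 it was -0.28 for Ndufs1 and -0.056 for Sdha.

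**Figure D2:**
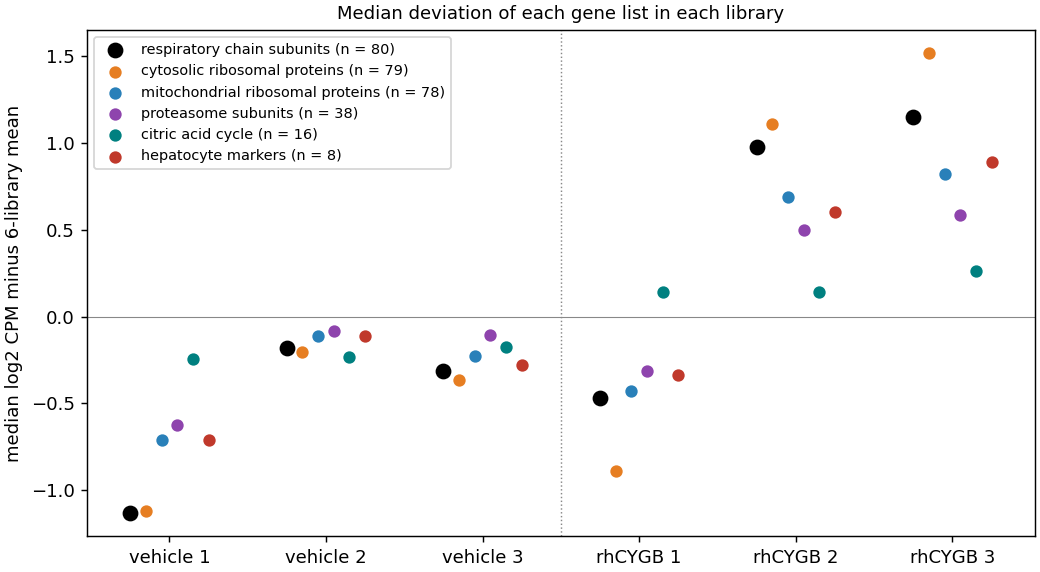
Median log2 CPM relative to the 6-library mean in each library (x axis), for the 80 tested members (black) and for 5 other gene lists described further on (colours, n genes in the legend). The members lie above 0 in rhCYGB 2 and rhCYGB 3 and lowest in vehicle 1 (0.98, 1.15 and -1.13), while rhCYGB 1 (-0.47) falls among the vehicle libraries; with rhCYGB 2 and rhCYGB 3 left out the members' median fold change is -0.03.

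Members whose groups did not overlap at all differed between the scales. In CPM, 11 of 80 members had every rhCYGB library above every vehicle library and 0 had the reverse, where 6.02% and 7.38% of all genes did. Among them were Ndufa9, Sdhc, Sdhd, Uqcrfs1, Uqcrc1, Atp5g3, Atp5c1, Atp5f1, Atp5b and Atp5a1, and all but Atp5g3 have mRNAs of over 1000 bases. In TPM, 13 of 80 were higher without overlap and 0 lower, where 1.33% and 12.7% of all genes were. Those were Ndufs5, Ndufs7, Ndufs3, Ndufb5, Ndufa10, Ndufv1, Sdhb, Uqcrq, Uqcrc1, Cox7c, Atp5l, Atp5c1 and Atp5sl. Uqcrc1 and Atp5c1 were on both lists.

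Complex I is the NADH dehydrogenase. Its catalytic core in the matrix arm includes Ndufv1, which holds the flavin where NADH is oxidised, Ndufv2 and Ndufs1, which carry iron-sulfur clusters, and Ndufs3, Ndufs7 and Ndufs8, which lead to the coenzyme Q site. All 37 members were tested, and 23 were higher at an unadjusted p under 0.05 in edgeR (0 lower). Over all genes 6.06% were higher and 2.06% lower at that p. Levels of the core were moderate: Ndufv1 had 164, 161 and 170.3 TPM in the vehicle libraries and 187, 220.3 and 287 TPM with rhCYGB. Every rhCYGB library was above every vehicle library for it. Ndufs3 had 198, 199 and 221 TPM in the vehicle libraries and 230.1, 286 and 308 TPM with rhCYGB, again without overlap. Ndufs7 behaved likewise, at 112, 134 and 129 TPM in the vehicle libraries and 136, 185 and 257 TPM with rhCYGB.

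Ndufs1 (chr1:63143592-63176822 on mm10), the largest subunit of the core, had 79.8, 42.1 and 55.3 TPM in the vehicle libraries and 88.3, 23.6 and 18.6 TPM with rhCYGB. The libraries richest in long mRNAs, rhCYGB 1 and vehicle 1, were highest, rhCYGB 2 and rhCYGB 3 were lowest, and the groups overlapped. The fit gave a log2 fold change of 0.09 (SE 0.31, unadjusted p = 0.786 and adjusted p = 0.886 by the edgeR quasi-likelihood test), and its log2 fold change was -0.73 on the log2(TPM + 1) scale. Within the core, the 7 fitted log2 fold changes ran from 0.09 (Ndufs1) to 1.51 (Ndufs7), with a median of 1.06 in CPM and 0.24 on the log2(TPM + 1) scale. The 30 other subunits, which build and stabilise the membrane and matrix arms, had medians of 1.24 and 0.39.

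Ndufa4 (chr6:11900373-11907446 on mm10) was the most abundant member of the Nduf series at 867, 1111 and 1183 TPM in the vehicle libraries and 1175, 1996 and 1928 TPM with rhCYGB. It was first described as a complex I subunit and is now placed in complex IV. Libraries rhCYGB 2 and rhCYGB 3 were the highest, while rhCYGB 1 fell below vehicle 3. Its CPM averaged 250.5 ± 85.8 CPM (SD, n = 3) with vehicle and 739 ± 412 CPM (SD, n = 3) with rhCYGB, which gave a log2 fold change of 1.56 (SE 0.56, unadjusted p = 0.0269 and adjusted p = 0.523 by the edgeR quasi-likelihood test). Among the small accessory subunits, Ndufb9, a LYR-motif protein of the membrane arm, had 333, 407 and 393 TPM in the vehicle libraries and 397, 642 and 719 TPM with rhCYGB. Ndufa2 had 187, 242 and 235 TPM in the vehicle libraries and 201, 423 and 416 TPM with rhCYGB, and Ndufa5, of the matrix arm, had 109, 163 and 179 TPM in the vehicle libraries and 149.5, 305 and 312 TPM with rhCYGB. In all 4 of these genes rhCYGB 2 and rhCYGB 3 were above the other 4 libraries.

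Ndufb5 (chr3:32737063-32751559 on mm10), a membrane-arm subunit, had the smallest unadjusted p of the complex. It had 152, 147 and 154 TPM in the vehicle libraries and 165, 220.3 and 212 TPM with rhCYGB, so that all 3 rhCYGB libraries exceeded all 3 vehicle libraries, although rhCYGB 1 did so by a small margin. Its CPM values were 54.0, 82.7 and 76.8 CPM in the vehicle libraries and 76.6, 205 and 230.5 CPM with rhCYGB. On that scale the groups overlapped, and it had a log2 fold change of 1.26 (SE 0.44, unadjusted p = 0.0232 and adjusted p = 0.523 by the edgeR quasi-likelihood test). Ndufa13, also called Grim19, had 124, 199 and 197 TPM in the vehicle libraries and 164, 344 and 339 TPM with rhCYGB, with vehicle 1 the lowest and rhCYGB 1 below vehicle 2 and vehicle 3. Members with a value below 0 on the log2(TPM + 1) scale included Ndufb3 (-0.37), Ndufa9 (-0.31), Ndufv2 (-0.08), Ndufs1 (-0.73) and Ndufa4l2 (-0.24). Ndufb3, at 87.3, 83.8 and 92.4 TPM in the vehicle libraries and 95.2, 70.3 and 46.6 TPM with rhCYGB, had its lowest level in rhCYGB 3, with a log2 fold change of 0.36 in CPM.

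Complex II, the succinate dehydrogenase that also works in the citric acid cycle, had 4 members, all tested. Of these, 1 (Sdhb) was higher at an unadjusted p under 0.05 in edgeR, where 6.06% of all genes were. Sdhb (chr4:140961271-140979192 on mm10), the iron-sulfur subunit, had 302, 308 and 321 TPM in the vehicle libraries and 373, 409.5 and 429.9 TPM with rhCYGB. All 3 rhCYGB libraries were above all 3 vehicle libraries in TPM. In CPM it averaged 158 ± 37.6 CPM (SD, n = 3) with vehicle and 366 ± 163 CPM (SD, n = 3) with rhCYGB, with a log2 fold change of 1.21 (SE 0.43, unadjusted p = 0.0253 and adjusted p = 0.523 by the edgeR quasi-likelihood test). Its catalytic partner Sdha (chr13:74322255-74350240 on mm10), which holds the flavin, had 275, 159 and 188 TPM in the vehicle libraries and 278, 95.2 and 85.0 TPM with rhCYGB. Here vehicle 1 and rhCYGB 1 were high and rhCYGB 2 and rhCYGB 3 low. The fit gave Sdha a log2 fold change of 0.14 (SE 0.29, unadjusted p = 0.643 and adjusted p = 0.805 by the edgeR quasi-likelihood test), and -0.62 on the log2(TPM + 1) scale.

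Sdhc and Sdhd anchor the enzyme in the membrane and bind its heme. Sdhc had 272, 236 and 248 TPM in the vehicle libraries and 310.4, 187 and 184 TPM with rhCYGB, and Sdhd had 282, 267 and 317 TPM in the vehicle libraries and 349.7, 265 and 219 TPM with rhCYGB. Both had their highest TPM in rhCYGB 1 and their lowest in rhCYGB 3, while in CPM the rhCYGB libraries did not overlap the vehicle libraries. Their log2 fold changes were 0.55 and 0.66 in CPM and -0.19 and -0.08 on the log2(TPM + 1) scale, so the sign depended on the scale. The mRNAs of 1 enzyme's subunits thus differed in proportion between libraries, but also in length, at 1073 bases for Sdhb and 2859 for Sdha. With each library's length trend removed, their log2 fold changes were 0.80 and 0.33. The part of length in the ratio was not tested. The ratio of Sdhb to Sdha in TPM was 1.10, 1.93 and 1.71 in the vehicle libraries and 1.34, 4.30 and 5.06 with rhCYGB. The ratio of rhCYGB 1 lay within the vehicle range, and those of rhCYGB 2 and rhCYGB 3 above it.

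Complex III, the cytochrome bc1 complex, had 8 members, all tested. Of these, 5 were higher at an unadjusted p under 0.05 in edgeR, where 6.06% of all genes were. The complex has 5 small subunits, of which 4 were among the 5 higher members, and 3 large ones, of which 1 was. Uqcr10 (chr11:4701968-4704344 on mm10), a small subunit of the membrane region, had 421, 454 and 492 TPM in the vehicle libraries and 484, 908 and 1085 TPM with rhCYGB. Libraries rhCYGB 2 and rhCYGB 3 were far above the rest, and rhCYGB 1 fell below vehicle 3. In CPM its values were 66.1, 113 and 109 CPM in the vehicle libraries and 98.8, 373 and 521 CPM with rhCYGB. This amounted to a log2 fold change of 1.79 (SE 0.59, unadjusted p = 0.0188 and adjusted p = 0.523 by the edgeR quasi-likelihood test), the smallest unadjusted p of any member. Uqcr11, the most abundant complex III member, had 552, 729 and 664 TPM in the vehicle libraries and 582, 1301 and 1389 TPM with rhCYGB. Again rhCYGB 2 and rhCYGB 3 were highest and rhCYGB 1 lay within the vehicle range, and it had a log2 fold change of 1.67 (SE 0.63, unadjusted p = 0.0325 and adjusted p = 0.523 by the edgeR quasi-likelihood test).

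Uqcrh, the hinge protein that helps cytochrome c dock, had 476, 641 and 650.4 TPM in the vehicle libraries and 608, 932 and 1032 TPM with rhCYGB. Uqcrq, another small subunit, had 252, 292 and 281 TPM in the vehicle libraries and 329.9, 601 and 358 TPM with rhCYGB, with all 3 rhCYGB libraries above the vehicle libraries and rhCYGB 2 far ahead. Uqcrb, a small subunit near the coenzyme Q site, had 394, 491 and 564 TPM in the vehicle libraries and 473, 673 and 536 TPM with rhCYGB, with the groups overlapping. The large core protein Uqcrc1 had 268, 248 and 266 TPM in the vehicle libraries and 308, 279 and 312 TPM with rhCYGB, without overlap on either scale, at a log2 fold change of 1.01 in CPM. Its companion Uqcrc2 had 230.1, 148 and 185 TPM in the vehicle libraries and 258, 105 and 80.0 TPM with rhCYGB, with rhCYGB 1 highest and rhCYGB 3 lowest. For Uqcrc2 this was a log2 fold change of 0.24 (SE 0.26, unadjusted p = 0.382 and adjusted p = 0.650 by the edgeR quasi-likelihood test), and -0.51 on the log2(TPM + 1) scale.

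Uqcrfs1, the Rieske iron-sulfur protein that takes electrons from coenzyme Q, had 283, 231 and 263 TPM in the vehicle libraries and 344, 190.5 and 151 TPM with rhCYGB, again with rhCYGB 1 highest and rhCYGB 3 lowest. The 3 large subunits had a median log2 fold change of 0.47 in CPM and -0.26 on the log2(TPM + 1) scale, against 1.48 and 0.59 for the 5 small ones. The mRNAs of Uqcr10 and Uqcrc2 have 441 and 1882 bases, and with the length trend removed their log2 fold changes were 0.86 and 0.21. The ratio of Uqcr10 to Uqcrc2 in TPM was 1.83, 3.07 and 2.66 in the vehicle libraries and 1.88, 8.63 and 13.6 with rhCYGB. The value of rhCYGB 1 lay within the vehicle range, and those of rhCYGB 2 and rhCYGB 3 above it.

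**Figure D3:**
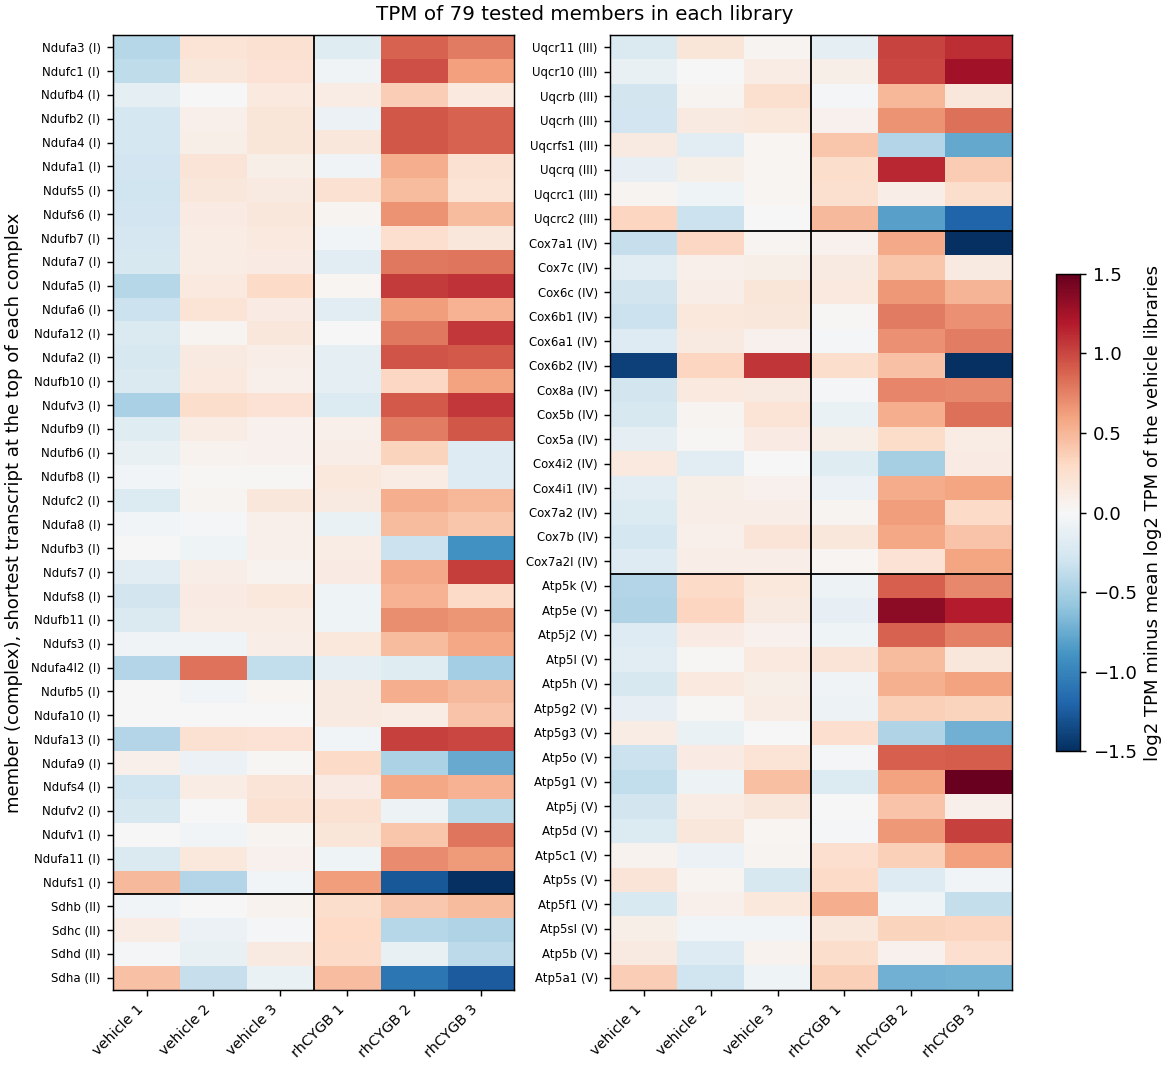
Log2 TPM of 79 of the 80 tested members (1 is not reported here) minus its mean log2 TPM over the vehicle libraries (colour scale from -1.5 to 1.5), members grouped by complex with the shortest transcript at the top of each, libraries in columns. Most members are high in rhCYGB 2 and rhCYGB 3, and some long ones, such as Ndufs1 (-0.73 between the groups on the log2(TPM + 1) scale), Sdha (-0.62) and Uqcrc2 (-0.51), are low there.

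Complex IV, cytochrome c oxidase, had 18 members by symbol, of which 14 were tested. Of those, 8 were higher at an unadjusted p under 0.05 in edgeR, where 6.06% of all genes were. The subunits made in all tissues were abundant. Cox4i1 (chr8:120668225-120674209 on mm10), the common form of subunit 4, had 801, 949 and 934 TPM in the vehicle libraries and 839.6, 1311 and 1341 TPM with rhCYGB. Both rhCYGB 2 and rhCYGB 3 were above every vehicle library, and rhCYGB 1 was below vehicle 2 and vehicle 3. In CPM it averaged 318 ± 95.7 CPM (SD, n = 3) with vehicle and 758 ± 416 CPM (SD, n = 3) with rhCYGB, and it had a log2 fold change of 1.25 (SE 0.54, unadjusted p = 0.0509 and adjusted p = 0.523 by the edgeR quasi-likelihood test). Cox6a1, whose promoter is printed above, had 627, 784 and 749.8 TPM in the vehicle libraries and 707, 1155 and 1218 TPM with rhCYGB. It had the smallest unadjusted p of the complex, with a log2 fold change of 1.39 (SE 0.55, unadjusted p = 0.0386 and adjusted p = 0.523 by the edgeR quasi-likelihood test).

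Cox6b1, which faces the intermembrane space where cytochrome c docks, had 585, 821 and 824 TPM in the vehicle libraries and 743, 1262 and 1182 TPM with rhCYGB. Cox8a had 550.4, 733 and 727 TPM in the vehicle libraries and 654, 1105 and 1091 TPM with rhCYGB, and Cox5b, a zinc-binding subunit, had 401, 487 and 544 TPM in the vehicle libraries and 441, 691 and 840.3 TPM with rhCYGB. In all of these rhCYGB 2 and rhCYGB 3 exceeded every vehicle library, and rhCYGB 1 lay within the vehicle range. Cox7c was narrower, at 521, 618 and 625 TPM in the vehicle libraries and 644, 783 and 644 TPM with rhCYGB, where the 3 rhCYGB libraries were above the 3 vehicle libraries in TPM. Cox5a, a matrix-side subunit, had 411, 462 and 496 TPM in the vehicle libraries and 485, 551 and 492 TPM with rhCYGB, with rhCYGB 1 and rhCYGB 3 inside the vehicle range. Cox7a2l, known as a factor that joins complexes III and IV into supercomplexes, had 174, 213 and 213 TPM in the vehicle libraries and 204, 232 and 300.4 TPM with rhCYGB. Its fit gave a log2 fold change of 1.14 (SE 0.49, unadjusted p = 0.0519 and adjusted p = 0.523 by the edgeR quasi-likelihood test).

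Tissue-specific forms of complex IV subunits stood far below the common forms in these livers. Cox4i2, the form known from lung and from low-oxygen states, had 0.683, 0.553 and 0.621 TPM in the vehicle libraries and 0.542, 0.438 and 0.669 TPM with rhCYGB. No library stood out, and it had a log2 fold change of 0.65 (SE 0.62, unadjusted p = 0.327 and adjusted p = 0.620 by the edgeR quasi-likelihood test). It overlaps Bcl2l1 in the annotation, so that its few counts are uncertain. The heart and muscle form Cox7a1 had 7.17, 11.3 and 9.38 TPM in the vehicle libraries and 9.53, 13.5 and 2.91 TPM with rhCYGB, with rhCYGB 3 the lowest, and made up between 0.702% and 3.03% of the Cox7a1 and Cox7a2 sum. Cox6b2, the testis form, had 1.24, 4.12 and 6.93 TPM in the vehicle libraries and 3.95, 4.44 and 0.952 TPM with rhCYGB, again lowest in rhCYGB 3. The muscle forms Cox8b (at most 6 counts in a library) and Cox6a2 (at most 10) and the testis forms Cox7b2 and Cox8c (0 counts in all 6 libraries) were the 4 members not tested. In complex I, Ndufa4l2, a hypoxia-responsive relative of Ndufa4, had 3.62, 8.64 and 3.82 TPM in the vehicle libraries and 4.44, 4.35 and 3.45 TPM with rhCYGB, with vehicle 2 highest. It had a log2 fold change of 0.29 (SE 0.56, unadjusted p = 0.623 and adjusted p = 0.792 by the edgeR quasi-likelihood test), and its log2 fold change was -0.05 without vehicle 1.

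Complex V had 17 members, all tested. Of these, 11 were higher at an unadjusted p under 0.05 in edgeR, where 6.06% of all genes were. Atp5b (chr10:128083307-128090388 on mm10), the catalytic beta subunit of the F1 head, was the most abundant member of the complex, with 1362, 1084 and 1284 TPM in the vehicle libraries and 1484, 1299 and 1473 TPM with rhCYGB. The groups overlapped in TPM. In CPM its values were 911, 1149 and 1206 CPM in the vehicle libraries and 1291, 2273 and 3015 CPM with rhCYGB, without overlap, and it had a log2 fold change of 1.01 (SE 0.42, unadjusted p = 0.0443 and adjusted p = 0.523 by the edgeR quasi-likelihood test). The alpha subunit Atp5a1, which alternates with beta in the head, had 774, 487 and 574 TPM in the vehicle libraries and 772, 364 and 368 TPM with rhCYGB, with vehicle 1 and rhCYGB 1 high and rhCYGB 2 and rhCYGB 3 low. For Atp5a1 the fit gave a log2 fold change of 0.39 (SE 0.29, unadjusted p = 0.222 and adjusted p = 0.570 by the edgeR quasi-likelihood test), against -0.35 on the log2(TPM + 1) scale.

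Atp5c1 (chr2:10056031-10080510 on mm10), the gamma subunit that turns inside the head, had 472, 428 and 468 TPM in the vehicle libraries and 543, 584 and 701 TPM with rhCYGB. All 3 rhCYGB libraries exceeded the vehicle libraries in TPM and in CPM. It averaged 250.3 ± 47.2 CPM (SD, n = 3) with vehicle and 607 ± 300.0 CPM (SD, n = 3) with rhCYGB, and it had a log2 fold change of 1.28 (SE 0.45, unadjusted p = 0.0245 and adjusted p = 0.523 by the edgeR quasi-likelihood test), the smallest unadjusted p of the complex. Atp5d, the delta subunit, had 445, 579 and 523 TPM in the vehicle libraries and 508, 803 and 1044 TPM with rhCYGB, and Atp5e, the epsilon subunit, had 429, 737 and 644 TPM in the vehicle libraries and 540.0, 1485 and 1335 TPM with rhCYGB. For both, rhCYGB 2 and rhCYGB 3 were highest and rhCYGB 1 fell within the vehicle range. Atp5e had the largest fitted log2 fold change of the 80 members, 1.79 in CPM. Its ratio to Atp5a1 in TPM was 0.554, 1.51 and 1.12 in the vehicle libraries and 0.700, 4.08 and 3.62 with rhCYGB. These mRNAs have 414 and 2431 bases, and with the length trend removed their log2 fold changes were 0.87 and 0.51.

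In the stalk and the membrane part, Atp5j2 (subunit f, whose promoter is printed above) had 516, 644 and 619 TPM in the vehicle libraries and 564, 1087 and 996 TPM with rhCYGB. Atp5o, which confers oligomycin sensitivity, had 369, 504 and 531 TPM in the vehicle libraries and 456, 859.7 and 869 TPM with rhCYGB. For both, rhCYGB 2 and rhCYGB 3 were above the other 4 libraries. Atp5l, subunit g, had 467, 528 and 577 TPM in the vehicle libraries and 595, 723 and 586 TPM with rhCYGB, with no overlap, and Atp5f1, the stator's subunit b, had 273, 337 and 357 TPM in the vehicle libraries and 468, 307 and 251 TPM with rhCYGB, with rhCYGB 1 highest and rhCYGB 3 lowest. The 7 stalk and membrane subunits had a median log2 fold change of 1.24, and the 5 F1 subunits one of 1.28.

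Atp5g1, Atp5g2 and Atp5g3 encode the same mature c subunit of the rotor ring behind different import sequences. Atp5g1 had 252, 308 and 443 TPM in the vehicle libraries and 282, 494 and 906 TPM with rhCYGB. Atp5g2 had 287, 315 and 337 TPM in the vehicle libraries and 295, 399 and 393 TPM with rhCYGB. Atp5g3, whose promoter is printed above, had 766, 662 and 707 TPM in the vehicle libraries and 846, 520.0 and 431 TPM with rhCYGB. The first was highest in rhCYGB 3 and the last in rhCYGB 1, so that the share of Atp5g3 in the TPM of the 3 genes was 58.7%, 51.5% and 47.6% in the vehicle libraries and 59.5%, 36.8% and 24.9% with rhCYGB. The share of Atp5g1 was 19.3%, 24.0% and 29.8% in the vehicle libraries and 19.8%, 35.0% and 52.4% with rhCYGB, and was the leading gene in rhCYGB 3 alone. The summed TPM of the 3 genes was 1305, 1285 and 1487 TPM in the vehicle libraries and 1423, 1413 and 1729.7 TPM with rhCYGB. Log2 fold changes were 1.70, 1.06 and 0.43 in CPM. The 2 members Atp5s and Atp5sl, matched by symbol, stood between 7.11 and 24.8 TPM, far below the rest of the complex, and RefSeq now lists Atp5sl as Dmac2. Both are counted among the 11 complex V members higher at an unadjusted p under 0.05 in edgeR.

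Fold changes of the members followed transcript length, as those of other genes did. Members of at most 600 bases had a median log2 fold change of 1.37 and those of over 2500 bases one of 0.14. Genes outside the module ran from 0.98 to -0.24 over the same classes. Between these, the members had 1.16 at over 600 to 1000 bases, 1.07 at over 1000 to 1500 bases and 1.01 at over 1500 to 2500 bases, where the other genes had 0.67, 0.40 and 0.08. The members' median was thus above that of other genes in each of the 5 classes, the last of which held 3 members (Ndufs1, Sdha and Ndufa11). Among members of at most 600 bases, 22 of 30 (73.3%) were higher at an unadjusted p under 0.05 in edgeR, against 24.6% of other genes of that length. Across the 80 members Pearson's r of the log2 fold change with log2 length was -0.47, and across the 14335 other genes -0.38. With fold changes on the log2(TPM + 1) scale it was -0.50 and -0.28, so those values followed length as well. Genes of a library share its trend on length and are not independent replicates. The share of library TPM of members of at most 600 bases was 1.03%, 1.35% and 1.36% in the vehicle libraries and 1.24%, 2.10% and 2.04% with rhCYGB, and that of members of over 1500 bases was 0.414%, 0.339% and 0.386% in the vehicle libraries and 0.472%, 0.374% and 0.362% with rhCYGB. The short members were highest in rhCYGB 2 and rhCYGB 3, and the long ones were highest in rhCYGB 1.

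**Figure D4:**
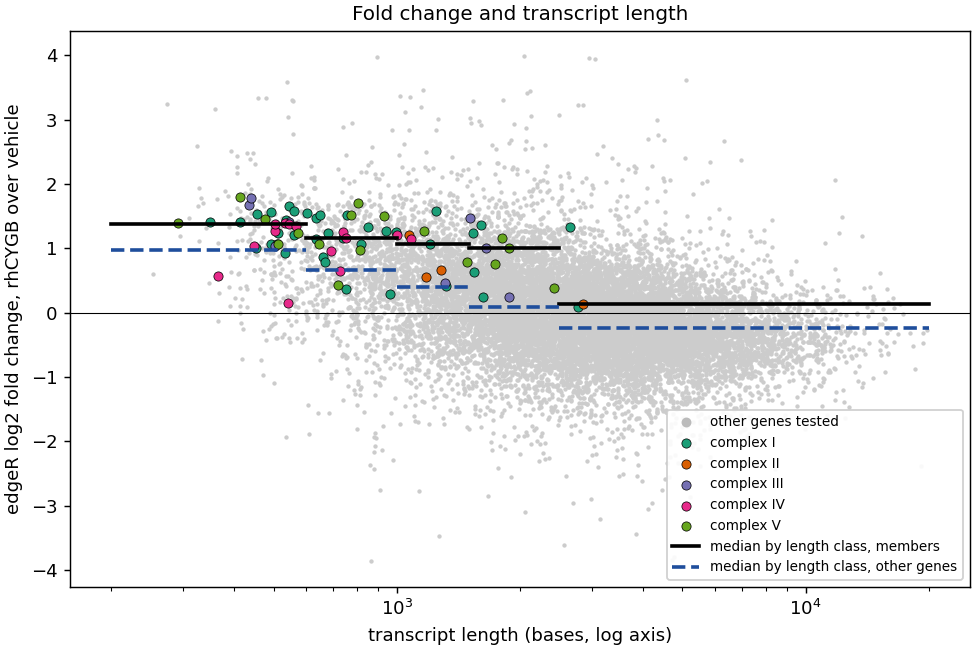
Log2 fold change (rhCYGB over vehicle, TMM-scaled counts) of the 80 tested members and of the other genes against transcript length in bases (log axis), members coloured by complex, with the median of each length class as lines (60 other genes lie outside the plotted range). Both medians fall with length, from medians of 1.37 (members) and 0.98 (others) at up to 600 bases to 0.14 and -0.24 at over 2500 bases.

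When each library's trend of expression on transcript length was removed, the median log2 fold change of the members was 0.57 and that of all genes 0.09. Fold changes were above 0 for 75 of 80 members, the exceptions being Ndufb3, Ndufa4l2, Cox7a1, Cox6b2 and Atp5g3, and 30 were at an unadjusted p under 0.05 in edgeR, all higher, where 9.18% of all genes were. None passed adjustment. The medians by complex became 0.53, 0.37, 0.69, 0.55 and 0.60 from complex I to complex V. Ndufv1 (log2 fold change 1.22), Ndufa13 (1.27), Uqcrq (1.27) and Ndufa11 (1.55) then had the largest values. Ndufs1 (0.24), Sdha (0.33) and Uqcrc2 (0.21) were lower, but long members as a set were not. The median was 0.79 for members of over 1500 bases and 0.51 for those of at most 600 bases.

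**Figure D5:**
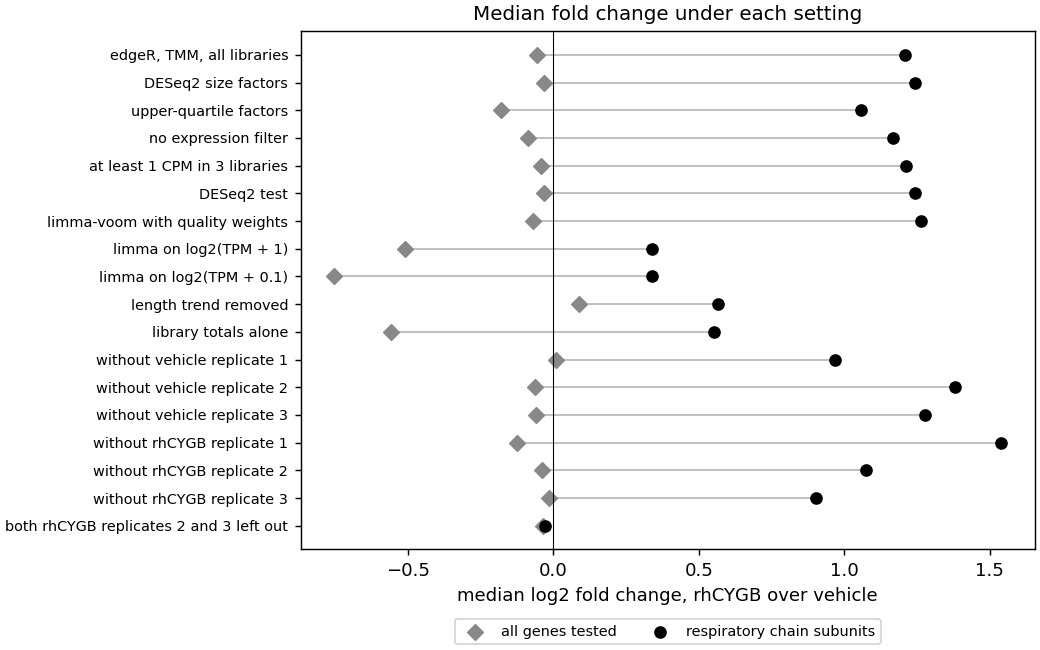
Median log2 fold change (rhCYGB over vehicle) of the members under each setting tried, with the median of all genes tested under it. The members' median lies between 0.90 and 1.54 when 1 library is left out, is 0.57 with the length trend removed and 0.34 on the log2(TPM + 1) scale, and is -0.03 with rhCYGB 2 and rhCYGB 3 both left out.

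Reads were also split among transcript models in the deposited transcript table, where 114 models of members had a count and 107 were tested among 19664 transcripts. Of these, 103 had a fitted log2 fold change above 0 and 4 below. None passed an adjusted p of 0.05 in the edgeR quasi-likelihood test (smallest adjusted p 0.802; 0% of all transcripts passed), and 15 were higher and 0 lower at an unadjusted p under 0.05, where 2.85% of all transcripts were higher. Without rhCYGB 1, 5 member transcripts passed adjustment, in a setting where 3391 of 14647 genes passed. The share of all transcripts that passed there is not given here, so the 5 are not read as a result about the members. Both models of Uqcrq were among the 15, with unadjusted p = 0.0273 and 0.0371 by the same edgeR test. The others included 1 model each of Ndufs3, Ndufs7, Ndufb5, Sdhb, Uqcrc1, Uqcr10 and Atp5b. Atp5g1 has a pair of models that took between 62.2% and 71.2% and between 28.8% and 37.8% of its TPM, with no group apart from the other. For Ndufs1 the estimated split among 4 models was unstable. A single model held 100% of its TPM in rhCYGB 2 and another held 100% in rhCYGB 3, while rhCYGB 1 and the vehicle libraries used all 4. Ndufs1 was not alone in this. A single Atp5f1 model held 100% in vehicle 1, vehicle 3, rhCYGB 2 and rhCYGB 3, but 0.109% in vehicle 2 and 0.0616% in rhCYGB 1.

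Other mitochondrial gene groups were read from the same edgeR fit, and none of their genes passed adjustment. Over all genes tested in that fit 46.8% had a log2 fold change above 0. At an unadjusted p under 0.05 in edgeR 6.06% were higher and 2.06% lower. Counts for these and the following lists are to be read against those shares. Respiratory chain subunits outside the symbol rule, such as Cyc1 (cytochrome c1), had 6 of 6 log2 fold changes above 0, a median of 0.85 and 3 at an unadjusted p under 0.05, all higher. On the log2(TPM + 1) scale, where 12.8% of all genes tested were above 0 (the share against which this and the following counts on that scale are to be read), 3 of the 6 were above 0. Usmg5, a small ATP synthase protein, had 422, 475 and 535 TPM in the vehicle libraries and 478, 791 and 687 TPM with rhCYGB. 2010107E04Rik, another, had 425, 481 and 509 TPM in the vehicle libraries and 478, 671 and 539 TPM with rhCYGB, and rhCYGB 2 and rhCYGB 3 were highest for both. Assembly factors had 38 of 45 above 0, a median of 0.57 and 6 at that p, higher. Their most abundant members, Cox17, a copper chaperone of complex IV, and Cox20, had log2 fold changes of 0.94 and 0.67. On the log2(TPM + 1) scale 11 of the 45 were above 0.

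Electron carriers and coenzyme Q enzymes had 16 of 18 above 0 (median 0.45, 4 at an unadjusted p under 0.05 in edgeR, all higher; 4 of 18 above 0 on the log2(TPM + 1) scale). The partners of the electron transfer flavoprotein, which feeds electrons from fatty acid oxidation into the chain, had different patterns. Etfb had 346, 492 and 499 TPM in the vehicle libraries and 448, 872 and 970.1 TPM with rhCYGB, and Etfa had 298, 278 and 325 TPM in the vehicle libraries and 397, 235 and 199.8 TPM with rhCYGB, with rhCYGB 3 the highest library of the first and the lowest of the second. Citric acid cycle genes had 15 of 16 above 0 (median 0.44, 5 at that p, all higher; 4 of 16 above 0 in TPM), among them Mdh2, malate dehydrogenase, at 474, 470.5 and 546 TPM in the vehicle libraries and 531, 687 and 881 TPM with rhCYGB. Fh1, fumarase, had 232, 219.8 and 248 TPM in the vehicle libraries and 253, 301 and 476 TPM with rhCYGB. Libraries rhCYGB 2 and rhCYGB 3 were again highest for both.

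Inner membrane carriers and porins had 7 of 9 above 0, with a median of 0.23, and 1 at an unadjusted p under 0.05 in edgeR; the ADP/ATP carrier Slc25a5 had 787, 549 and 651 TPM in the vehicle libraries and 820.1, 548 and 539 TPM with rhCYGB, and the phosphate carrier Slc25a3 had a log2 fold change of 0.44. Mitochondrial regulators had 11 of 18 above 0, with a median of 0.13 and 2 at that p, both higher. Esrra and Yy1, the most abundant of them and factors for elements searched above, had log2 fold changes of 0.65 and -0.19. Ppargc1a, the coactivator PGC-1alpha, named here after its values were seen, had 2.90, 1.13 and 1.87 TPM in the vehicle libraries and 3.83, 1.51 and 3.72 TPM with rhCYGB. It had a log2 fold change of 1.47 (SE 0.45, unadjusted p = 0.0137 and adjusted p = 0.523 by the edgeR quasi-likelihood test), with vehicle 2 the lowest library and rhCYGB 1 the highest. On the log2(TPM + 1) scale 1 of the 9 carriers and 3 of the 18 regulators were above 0.

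Other large gene families were read in the same way, beside 46.8% of all genes above 0 and 6.06% higher at an unadjusted p under 0.05 in edgeR. Mitochondrial ribosomal proteins had 77 of 78 above 0, a median of 0.79 and 16 at an unadjusted p under 0.05 in edgeR, all higher, and 36 of 78 above 0 on the log2(TPM + 1) scale. Mrpl12 had a log2 fold change of 1.34 and Mrpl52 one of 1.43. Cytosolic ribosomal proteins had 79 of 79 above 0, a median of 1.46 and 34 at that p, all higher, and 72 of 79 above 0 in TPM. Rplp1 had 1679, 2029 and 1924 TPM in the vehicle libraries and 1558, 3927 and 4737 TPM with rhCYGB, and Rpl41 had 1656, 1831 and 1927 TPM in the vehicle libraries and 1522, 2893 and 2671 TPM with rhCYGB, with the same 2 libraries on top. Proteasome subunits had 33 of 38 above 0, a median of 0.52 and 4 at that p, all higher (9 of 38 above 0 in TPM), with Psmb3 at 1.05 and Psmd8 at 0.80. The respiratory chain median of 1.21 lay between those of the 2 ribosomal groups. No difference between these lists was tested.

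Markers of the liver's cell types also differed between the libraries. Their counts are likewise set beside 46.8% of all genes above 0. Summed TPM, here and in the next paragraph, is to be read beside the log2(TPM + 1) scale. On it 12.8% of all genes tested were above 0 and their median was -0.51. A lower TPM sum with rhCYGB thus went the way of most genes. At an unadjusted p under 0.05 in edgeR 6.06% of all genes were higher and 2.06% lower. Hepatocyte markers (Alb, Ttr, Apoa1, Serpina1c, Cps1, Hnf4a, Asgr1, Tat) were all detected in this liver tissue, and 8 of 8 had a log2 fold change above 0 (median 0.80, 0 at an unadjusted p under 0.05 in edgeR), though 3 of 8 on the log2(TPM + 1) scale. Their library medians in log2 CPM, relative to the 6-library mean, were -0.71, -0.11 and -0.28 in the vehicle group. In the rhCYGB group they were -0.34, 0.60 and 0.89. The respiratory chain had that order of libraries, and so did both ribosomal protein lists and the proteasome subunits. It was not particular to hepatocyte genes. Hepatocyte markers summed to 84638 to 97478 TPM with vehicle and 100825 to 115413 TPM with rhCYGB, without overlap. For the respiratory chain's summed TPM the groups overlapped. Cholangiocyte markers (Krt7, Krt19, Epcam, Sox9, Spp1, Cftr) had 2 of 6 above 0 and 1 lower at that p, with a summed level of 1168 to 2040.0 TPM with vehicle and 120.4 to 875 TPM with rhCYGB. Stellate markers had 1 of 6 above 0 and 1 lower at that p, with 285 to 598 TPM with vehicle and 44.2 to 314 TPM with rhCYGB. Both sums were lowest in rhCYGB 3 and highest in vehicle 1.

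Macrophage markers had 2 of 6 above 0 and summed to 2040.4 to 3205 TPM with vehicle and 727 to 1613 TPM with rhCYGB, and endothelial markers had 2 of 5 and 60.1 to 109 TPM with vehicle and 21.3 to 93.6 TPM with rhCYGB. Lymphocyte markers summed to 3.53 to 6.37 TPM with vehicle and 1.99 to 3.83 TPM with rhCYGB (2 of 3 tested above 0), and neutrophil markers to 130.1 to 227 TPM with vehicle and 73.3 to 135 TPM with rhCYGB (1 of 2; Ly6g was at 0 in all libraries). Erythroid markers had 3 of 6 above 0, and their sum was highest in vehicle 2, at 593 to 2796 TPM with vehicle and 556 to 1138 TPM with rhCYGB. Striated muscle markers stayed at or below 0.331 TPM in sum with 0 tested and Myh4 and Mb at 0, and adipose markers at or below 2.51 TPM with Adipoq, Plin1 and Lep at 0 and 1 tested, which was not above 0. The part of the cell composition, like that of transcript length, in the respiratory chain values was not tested.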

How the data were processed

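Liver mRNA of 6 mice (3 vehicle, 3 rhCYGB, each a separately numbered animal) was sequenced in pairs from stranded mRNA libraries, per the labels' protocols. Reads were handled with HISAT2 2.1.0 and StringTie 1.3.4d on mm10, per the submitters' processing notes. Both tables, by gene and by transcript, were deposited with counts and FPKM of every library. The deposited counts are estimated counts, since in the transcript table they equal FPKM times length times a library constant within 0.0838%. The deposited FPKM were rescaled here to the same total in every library (TPM). The transcript length and coordinates were deposited with the transcript table. A gene's length is the FPKM-weighted mean of its transcripts.

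Counts, rounded, were tested over all genes kept by edgeR's filterByExpr, with TMM factors and the robust quasi-likelihood F test (edgeR 4.0.16, limma 3.58.1, R 4.3.3). P-values were adjusted by Benjamini-Hochberg over all genes, and called means an adjusted p under 0.05. Alternatives were DESeq2 1.42.0, limma-voom with quality weights, limma on log2(TPM + 1) and on log2(TPM + 0.1), other scalings and filters, loess removal (span 0.5) of each library's length trend, and leaving out each library. Library totals alone, and leaving out rhCYGB 2 and rhCYGB 3 together, were added after seeing the data. The fit was tried on simulated counts with a fixed spread between replicates, not the spread of these libraries. That trial therefore does not show how the tests perform on these data. Replicate p-values measure the spread between these 3 mice a group. Intervals were not computed for single values.

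The members and gene lists were chosen with earlier results of these data known. Full statistics are given for the member of highest mean TPM and that of smallest p in each complex, Ndufa4l2 and Cox4i2, and, chosen after their values were seen, the longest member of each complex. The values of 1 member are not reported here, although it is counted. From each other list the 2 genes of highest mean TPM are named. Promoter windows are RefSeq's on GRCm38.p6, the same chromosome sequences as mm10. Members also have processed pseudogenes, with which the counting could share reads.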

Additional observations from a re-analysis of the deposited data

How the results depend on the processing

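With 1 library left out in turn, the number of genes called ranged from 0 to 3391, of members called from 0 to 63 and of member transcripts called from 0 to 5, the upper ends all without rhCYGB 1, and of members higher at an unadjusted p under 0.05 from 0 to 67. DESeq2 called 56 genes (10 members had no adjusted p, and the smallest among the others was 0.0578) and limma-voom with quality weights 4323, of which 65 were members. The 48 members at an unadjusted p under 0.05 became 30 with the length trend removed, 22 with upper-quartile factors, 3 with library totals alone, 2 and 1 on log2(TPM + 0.1) and log2(TPM + 1), and 0 with rhCYGB 2 and rhCYGB 3 both left out, where 39 of 80 had a fold change above 0. Over all genes the share higher at that p was 9.18%, 3.37%, 0.978%, 0.617%, 0.604% and 0.906% in these settings. With both left out the median log2 fold change was -0.027 for all members and -0.050, 0.26, 0.12, -0.064 and -0.074 for complexes I to V. On log2(TPM + 0.1) and log2(TPM + 1) alike it was 0.34 for all members and 0.39, -0.13, 0.37, 0.34 and 0.27 for complexes I to V, and complex II had 0.041 with library totals alone. Without 1 library it stayed between 0.90 and 1.54 for all members.

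Signs turned for 10 of the 16 members given full statistics. With rhCYGB 2 and rhCYGB 3 both left out, the log2 fold change was -0.15 for Cox4i1, -0.21 for Cox4i2, -0.090 for Cox6a1, -0.036 for Cox7a2l, -0.39 for Ndufa4l2 and -0.22 for Uqcr11. With library totals alone it was -0.15 for Atp5a1, -0.26 for Ndufa4l2, -0.34 for Ndufs1, -0.34 for Sdha and -0.24 for Uqcrc2. On log2(TPM + 0.1) it was -0.35 for Atp5a1, -0.16 for Cox4i2, -0.28 for Ndufa4l2, -0.75 for Ndufs1, -0.62 for Sdha and -0.51 for Uqcrc2, and on log2(TPM + 1) -0.35, -0.065, -0.24, -0.73, -0.62 and -0.51. limma-voom gave -0.15 for Ndufs1 and -0.031 for Sdha, upper-quartile factors -0.027 for Ndufs1, and length removal -0.082 for Ndufa4l2. Without 1 library in turn, values ran from -0.050 to 1.04 for Ndufa4l2, -0.279 to 0.26 for Ndufs1 and -0.056 to 0.23 for Sdha. The cause was not tested in any of these cases.

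No paired analysis was possible because the labels name each mouse by its own number and share none between the groups. Apart from these, 164 of the summary values and 221 of the single-gene values kept their direction and their side of the threshold, and 20 single-gene values passed it where they had not, all of them with limma-voom or without rhCYGB 1. With 3 mice a group an exact two-sided permutation test of 1 value cannot go below p = 0.1. Depth limits only the low members: Cox4i2 stood below 1 TPM, and the 4 untested members had at most 10 counts in any library.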

Other observations

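Ndufs5, a subunit of complex I found in all tissues, stood far below its partners. It had 9.19, 12.7 and 12.4 TPM in the vehicle libraries and 13.2, 15.8 and 13.1 TPM with rhCYGB. Every other complex I member except Ndufa4l2 had at least 18.6 TPM in each library. RefSeq lists a pseudogene copy, Ndufs5-ps, which was not analysed here, and whether reads were shared with it was not tested.

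Counts of several members may hold reads of neighbours, because they overlap other genes in RefSeq and the strand setting of the counting is not given in the sources used here. Among them are Uqcrq with Gdf9, Uqcrc2 with Pdzd9, Atp5j with Gabpa and Ndufa13 with Tssk6. Their log2 fold changes in CPM were 1.48, 0.24, 0.97 and 1.59.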
